A study of Homo sapiens with 14 samples.

Results

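The genes described here are 9 that build, break down or set the balance of glycogen, chosen by symbol from the 23106 gene symbols counted in every library. The synthesis arm has 5 members (GYG1, GYS1, GBE1, PGM1 and UGP2), the breakdown arm has 2 (PYGB and PYGL), and a further 2 (PPP1R3B and PPP1R3C) are targeting subunits of protein phosphatase 1. All 9 were found. Polyadenylated RNA was sequenced from PC3, a human prostate cancer cell line, and from HCT116, a human colorectal cancer cell line. Cells of both lines were kept in normoxia (21% O2) or for 16 h in hypoxia (0.5% O2), which gave 4 PC3 and 3 HCT116 libraries per condition. No genetic change or drug was applied to any of the 4 groups. PC3 cells grew in DMEM/Ham's F12 and HCT116 cells in McCoy's 5a, both with serum, L-glutamine and antibiotics. Line, medium and any difference of sequencing run between the lines thus cannot be told apart. Each line stands for a single tumour, and the methods of the study describe the libraries as biological replicates.

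Glycogen is a branched store of glucose held in the cytosol. Glucose 6-phosphate is converted to glucose 1-phosphate by phosphoglucomutase (PGM1) and then to UDP-glucose by UGP2. Glycogenin (GYG1) starts the chain, glycogen synthase (GYS1 in most tissues, GYS2 in liver) extends it and the branching enzyme (GBE1) adds the branch points. Glycogen phosphorylase (PYGL is the liver form, PYGB the brain form and PYGM the muscle form) releases glucose 1-phosphate, which PGM1 can also return to glycolysis. Protein phosphatase 1, brought to the particle by subunits such as PPP1R3B and PPP1R3C, activates the synthase and inactivates the phosphorylase. Glycogen is known to build up in many cultured cells kept in low oxygen, and the hypoxia-inducible factors (HIF) are known to raise transcription of several of these genes. Transcript levels say nothing here of the amount of glycogen or the activity of an enzyme.

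The libraries held between 71228454 and 150630928 counts, with the PC3 hypoxic libraries the shallowest (71228454 to 96159803), so that 3 counts, taken as the floor, equal 0.0199 to 0.0421 CPM (counts scaled to the size of the library). Such floors cover counting error only. All 10 genes of a list of known hypoxia-inducible genes (CA9, VEGFA, BNIP3, PDK1, SLC2A1, ANKRD37, EGLN3, ADM, PFKFB4 and KDM3A) rose in both lines by edgeR, with a median log2 fold change of 1.52 in PC3 and 2.81 in HCT116. Epithelial markers summed to between 2823 and 3959 CPM in every library. Of 7 prostate markers, KLK3, KLK2 and FOLH1 had at most 3 counts in every PC3 library and HOXB13 led with 81.0 CPM in normoxia. Of 7 colon markers, CDX1, CDH17 and CEACAM5 had at most 3 counts in every HCT116 library and CDX2 led with 17.6 CPM in normoxia, while CEACAM5 reached a mean of 15.3 CPM in normoxic PC3 cells. Fibroblast markers summed to 6.87 to 12.7 CPM, leukocyte markers to at most 0.905 CPM, and markers of hepatocytes and skeletal muscle, the main glycogen-storing cells, to at most 0.149 and 0.202 CPM.

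HIF binds the core letters ACGTG or GCGTG. The 250 bases before the annotated start (the window) of 8 members were searched for them on both strands (RefSeq, build GRCh38.p14). PPP1R3B had no window in this set and was not searched. Of 35116 such windows of all genes, 43.2% held at least 1 of these motifs (18.5% held ACGTG and 32.2% held GCGTG). Counted by gene, 47.4% of symbols had a window with a motif, as did 7 of the 8 members with a window, and of the 11 windows of members 8 held one. PYGL had no match in its window and PGM1 had a match in only 1 of its 3 windows. PPP1R3C had 4 matches of ACGTG, of which those 45 and 44 bases before the start overlap on opposite strands as CACGTG. The windows of GYS1, GBE1 and GYG1 are shown because GYS1 and GBE1 rose in hypoxia in both lines and GYG1 fell in HCT116. Each is written 5′ to 3′ on the strand of the gene and ends at the base before the start, with the motifs in capitals. The GYS1 window is chr19:48993310-48993559 on the minus strand, the GBE1 window chr3:81761646-81761895 on the minus strand and the GYG1 window chr3:148991290-148991539 on the plus strand.
GYS1: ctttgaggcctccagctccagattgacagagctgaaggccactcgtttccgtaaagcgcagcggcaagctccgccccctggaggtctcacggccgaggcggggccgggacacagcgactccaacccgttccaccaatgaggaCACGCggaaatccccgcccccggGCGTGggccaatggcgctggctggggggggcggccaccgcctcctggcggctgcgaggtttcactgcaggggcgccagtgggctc
GBE1: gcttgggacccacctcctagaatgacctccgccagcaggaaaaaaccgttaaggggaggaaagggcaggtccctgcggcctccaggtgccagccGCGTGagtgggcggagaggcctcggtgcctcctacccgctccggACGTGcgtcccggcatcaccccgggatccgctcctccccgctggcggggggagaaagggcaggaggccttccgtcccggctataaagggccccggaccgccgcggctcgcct
GYG1: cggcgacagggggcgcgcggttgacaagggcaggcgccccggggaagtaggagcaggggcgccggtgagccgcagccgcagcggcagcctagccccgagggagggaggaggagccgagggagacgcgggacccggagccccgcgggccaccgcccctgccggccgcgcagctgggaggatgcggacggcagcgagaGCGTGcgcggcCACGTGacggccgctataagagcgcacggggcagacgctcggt
In GYS1 the motifs are GCGTG on both strands, 108 and 85 bases before the start. In GBE1 they are GCGTG 156 and ACGTG 112 bases before the start, both on the strand of the gene. In GYG1 GCGTG lies 54 bases before the start, and ACGTG on both strands overlaps at 43 and 42 bases, making the palindrome CACGTG, an E-box that other factors also bind and that 6.34% of all windows held. A match describes the letters and is no measurement of binding, and the motifs were present in a member that fell as well as in members that rose.

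The question of the first comparison was how 16 h of hypoxia changed these transcripts in each line. In PC3, 7 of the 8 members tested rose and none fell, where 11.3% of 14309 genes passed in either direction (6.03% rose and 5.29% fell). In HCT116, 5 of 8 rose and 1 fell, where 25.9% of 14120 genes passed (14.6% rose and 11.3% fell). GYS1, GBE1, PGM1, PYGL and PPP1R3B rose in both lines. The median log2 fold change of the members was 0.43 in PC3 and 0.71 in HCT116, beside 0.00 over all genes tested in either line. The fall count of 0 in PC3 was also 0 at an unadjusted p under 0.05 by edgeR and 0 by DESeq2, and was 1 (GYG1) with total-count scaling (adjusted p = 0.0471) and without hypoxic replicate 4. In PC3 the number that rose dropped to 3 without normoxic replicate 2, to 4 without normoxic replicate 3 and to 4 without hypoxic replicate 2. Fewer than 7 also rose without normoxic replicate 1 or 4 or hypoxic replicate 3 or 4, and with upper-quartile or total-count scaling. All 7 held only when hypoxic replicate 1 was the library left out. GBE1, PGM1 and PPP1R3B passed whichever library was left out. These libraries are of whole cultures, in which more cells expressing a gene and more RNA per cell cannot be told apart.

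**Figure D1:**
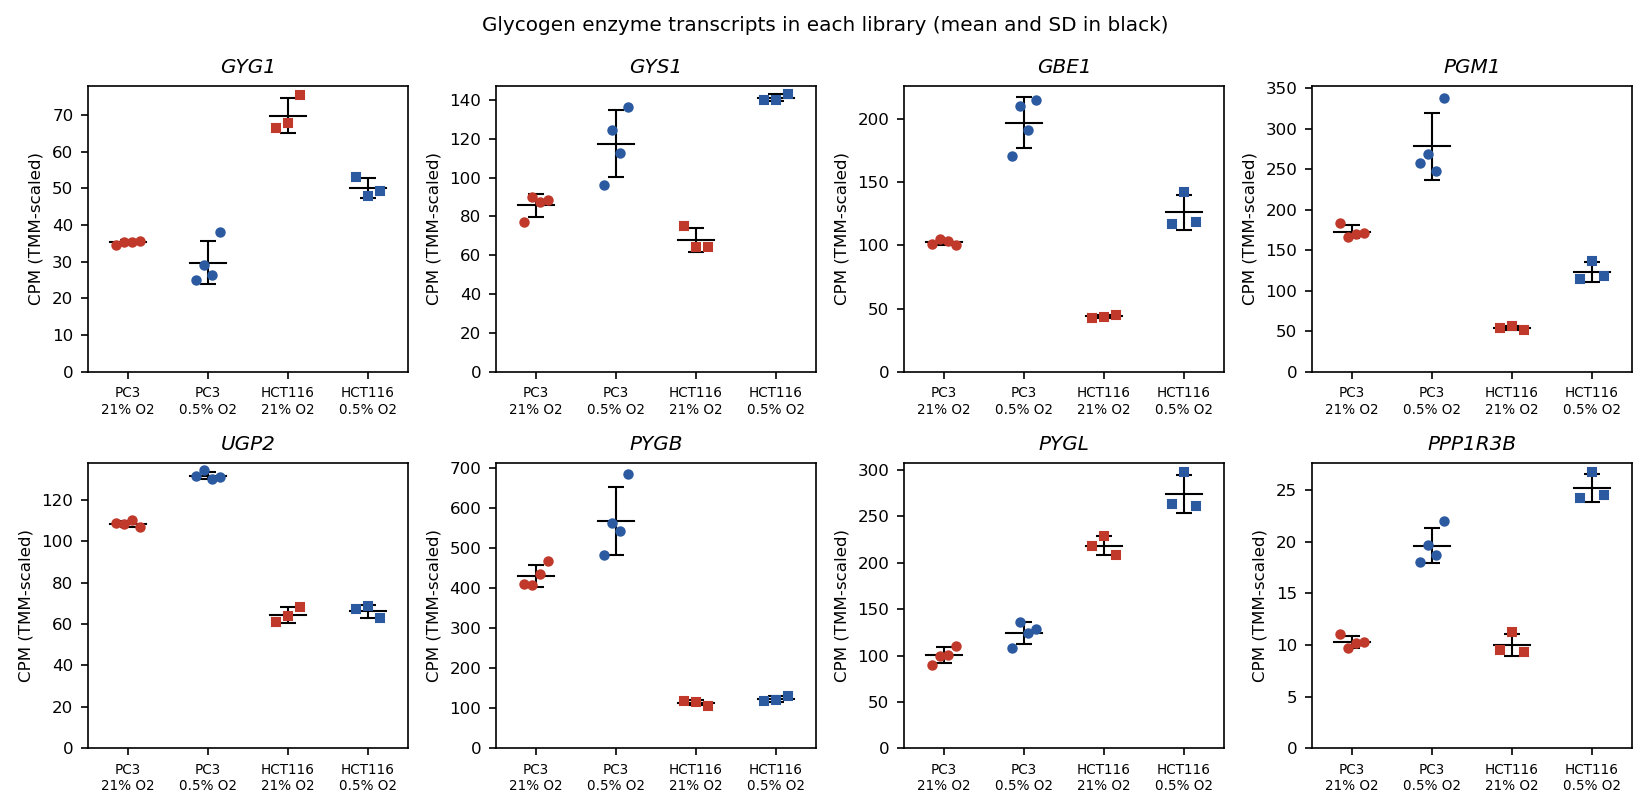
Level of each tested member in each library, in CPM scaled by TMM, with PC3 as circles, HCT116 as squares, 21% O2 in red, 0.5% O2 in blue, and the mean and SD of each group in black. GBE1, PGM1, GYS1 and PPP1R3B lie higher in every hypoxic library than in any normoxic library of the same line, whereas GYG1 lies lower in HCT116.

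GBE1, the branching enzyme (chromosome 3, 81538854 to 81810796, GRCh37, minus strand), had the largest rise of the members in HCT116 and, side by side with PPP1R3B, in PC3. Its level in PC3 was 101, 105, 104 and 100.4 CPM in the normoxic libraries and 171, 211, 192 and 215 CPM in the hypoxic libraries. In HCT116 it was 42.7, 43.7 and 45.1 CPM in normoxia and 117, 142 and 119 CPM in hypoxia. The conditions were far apart in both lines, and hypoxic HCT116 cells came to a level somewhat above that of normoxic PC3 cells. Its log2 fold change was 0.94 (SE 0.08) in PC3, a fold of 1.93 (edgeR adjusted p = 0.000178), and 1.54 (SE 0.08) in HCT116, a fold of 2.91 (edgeR adjusted p = 2.23e-07).

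GYS1, the synthase of most tissues (chromosome 19, 49471387 to 49496567, minus strand), extends the glucose chain. In PC3 it had 77.1, 89.8, 87.4 and 88.5 CPM in normoxia and 96.1, 124, 113 and 136 CPM in hypoxia. In HCT116 it had 75.2, 64.3 and 64.5 CPM in normoxia and 140.1, 140.1 and 143 CPM in hypoxia. The hypoxic libraries lay above the normoxic ones in both lines, closely above in PC3, where replicate 1 was lowest in each condition. The rise in PC3 was 0.46 on the log2 scale (SE 0.10, fold 1.37, edgeR adjusted p = 0.0202) and missed the threshold without normoxic replicate 2, 3 or 4 or hypoxic replicate 2, with an adjusted p of up to 0.0674. The rise in HCT116 was 1.07 (SE 0.07, fold 2.10, edgeR adjusted p = 1.67e-06).

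PGM1, the phosphoglucomutase that serves both arms (chromosome 1, 64059082 to 64125916, plus strand), shares 4.83% of its exon bases with ITGB3BP on the other strand. Its level in PC3 was 184, 166, 169 and 171 CPM in normoxia and 258, 268, 247 and 338 CPM in hypoxia. In HCT116 it was 53.5, 56.4 and 51.9 CPM in normoxia and 114, 137 and 118 CPM in hypoxia. The conditions did not overlap in either line, and PC3 hypoxic replicate 4, the shallowest library, was the highest of all. PGM1 rose by a log2 fold change of 0.69 (SE 0.10, fold 1.61, edgeR adjusted p = 0.00395) in PC3 and 1.21 (SE 0.08, fold 2.31, edgeR adjusted p = 1.24e-06) in HCT116.

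UGP2, which makes UDP-glucose (chromosome 2, 64068086 to 64118696, plus strand), rose by a small amount in PC3 and did not pass the test in HCT116. Its level in PC3 was 109, 108, 110.2 and 107 CPM in normoxia and 131, 134, 130.1 and 131 CPM in hypoxia. In HCT116 it was 60.9, 63.7 and 68.3 CPM in normoxia and 67.3, 68.6 and 62.7 CPM in hypoxia. The PC3 libraries were tight and did not overlap, while those of HCT116 were mixed. The log2 fold change in PC3 was 0.28 (SE 0.05, fold 1.22, edgeR adjusted p = 0.0114), with an adjusted p of 0.0557 without normoxic replicate 2. With total-count scaling it was 0.18 (adjusted p = 0.0541). In HCT116 it was 0.059 (SE 0.07, edgeR adjusted p = 0.579), with a 95% interval from -0.10 to 0.22.

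GYG1, the glycogenin primer (chromosome 3, 148709195 to 148749562, plus strand), was the only member to fall, and fell in HCT116. There it had 66.4, 67.9 and 75.3 CPM in normoxia and 53.2, 47.9 and 49.3 CPM in hypoxia. In PC3 it had 34.6, 35.5, 35.4 and 35.8 CPM in normoxia and 25.1, 29.2, 26.4 and 38.2 CPM in hypoxia. The HCT116 conditions were apart, whereas in PC3 hypoxic replicate 4 lay above every normoxic library and the other hypoxic libraries lay below them. GYG1 fell by 0.46 on the log2 scale in HCT116 (SE 0.08, fold 0.726, edgeR adjusted p = 0.00145). In PC3 the log2 fold change was -0.25 (SE 0.12, 95% interval -0.51 to 0.018, edgeR adjusted p = 0.209), and -0.38 (edgeR adjusted p = 0.00609) without hypoxic replicate 4.

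A limit on GYG1 is that 21.8% of its exon bases are shared with HLTF on the other strand, and the strand setting of the counting is not given in the sources used here. HLTF itself had a log2 fold change of -0.17 (SE 0.09, edgeR adjusted p = 0.251) in PC3 and -0.21 (SE 0.08, edgeR adjusted p = 0.0848) in HCT116. Its part in the GYG1 values was not tested.

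PYGB, the brain form of the phosphorylase (chromosome 20, 25228721 to 25278648, plus strand), had the highest level per length of exon among the members in PC3. It had 412, 409, 436 and 468 CPM in normoxic and 484, 563, 542 and 685 CPM in hypoxic PC3 libraries. In HCT116 it had 118, 116 and 107 CPM in normoxia and 119, 120 and 131 CPM in hypoxia. Hypoxic libraries lay above normoxic ones in both lines, in HCT116 by a narrow margin. The log2 fold change was 0.40 (SE 0.10, fold 1.32, edgeR adjusted p = 0.0357) in PC3. It missed the threshold without normoxic replicate 1, 2, 3 or 4 or hypoxic replicate 2 or 3, with an adjusted p of up to 0.117, and with upper-quartile (adjusted p = 0.0518) and total-count scaling (adjusted p = 0.0598). In HCT116 it was 0.13 (SE 0.07, 95% interval -0.011 to 0.27, edgeR adjusted p = 0.159).

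PYGL, the liver form (chromosome 14, 51324609 to 51411201, minus strand), rose by about the same modest amount in both lines. PC3 had 89.9, 99.8, 100.5 and 111 CPM in normoxia and 108, 136, 125 and 129 CPM in hypoxia. HCT116 had 218, 229 and 208 CPM in normoxia and 263, 298 and 261 CPM in hypoxia. The PC3 conditions overlapped at a single pair of libraries, normoxic replicate 4 and hypoxic replicate 1, and the HCT116 conditions did not overlap. The log2 fold change was 0.32 (SE 0.08, fold 1.25, edgeR adjusted p = 0.0386) in PC3 and 0.34 (SE 0.07, fold 1.27, edgeR adjusted p = 0.00592) in HCT116. The PC3 value missed the threshold without normoxic replicate 1, 2 or 3 or hypoxic replicate 2, 3 or 4, with an adjusted p of up to 0.115. It also missed it with upper-quartile scaling (adjusted p = 0.0639) and with total-count scaling, where it was 0.21 (adjusted p = 0.124).

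PPP1R3B, the subunit that brings protein phosphatase 1 to glycogen in liver and other tissues (chromosome 8, 8993765 to 9009084, minus strand), was low and rose strongly. It had 11.1, 9.71, 10.2 and 10.3 CPM in normoxic PC3 and 18.1, 19.7, 18.7 and 22 CPM in hypoxic PC3 libraries. In HCT116 it had 9.56, 11.2 and 9.29 CPM in normoxia and 24.2, 26.8 and 24.6 CPM in hypoxia. Both lines began from the same level and no hypoxic library came near a normoxic one. On the log2 scale PPP1R3B rose by 0.93 (SE 0.08, fold 1.91, edgeR adjusted p = 0.000355) in PC3 and 1.34 (SE 0.09, fold 2.54, edgeR adjusted p = 1.19e-06) in HCT116.

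PPP1R3C, a related targeting subunit (chromosome 10, 93388199 to 93392828, minus strand), was at or near the floor throughout. It was the member left out of every main test by the filter on low counts. The alternative without that filter included it, and its values there are not given. It had 0 to 3 counts in the PC3 libraries, 1, 5 and 6 counts in normoxic HCT116 and 2, 1 and 1 in hypoxic HCT116 libraries. These counts are too low to show whether the conditions differed.

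**Figure D2:**
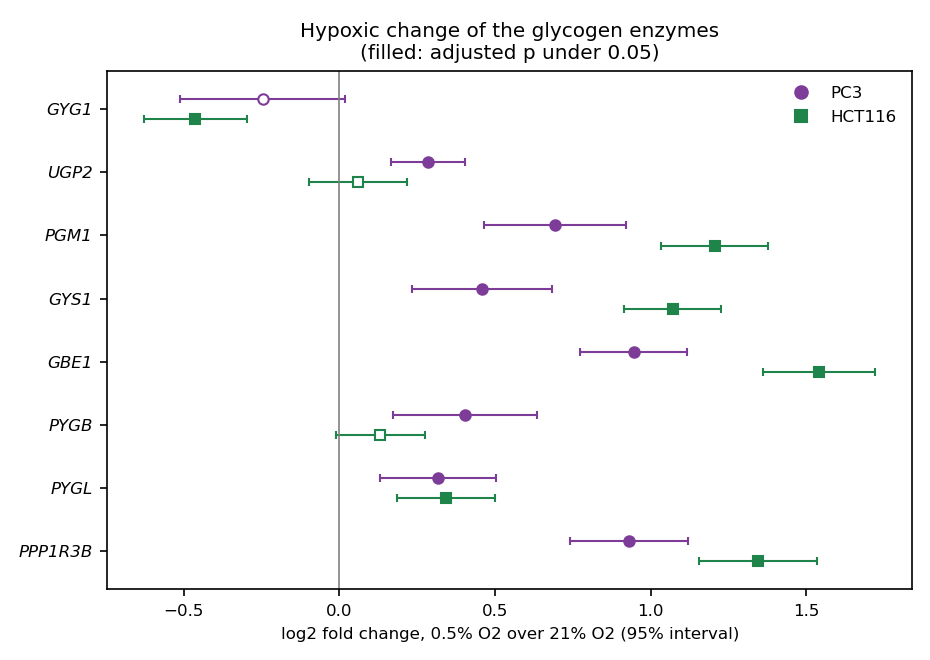
Log2 fold change of each tested member, 0.5% O2 over 21% O2, in PC3 (circles) and HCT116 (squares), with 95% intervals and filled symbols for an adjusted p under 0.05. The HCT116 change lies further from 0 than that of PC3 for GBE1, GYS1, PGM1 and PPP1R3B, and the phosphorylases PYGB and PYGL lie between 0.13 and 0.40.

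The next comparison asked whether the hypoxic change itself differed between the lines. As the interaction of line and oxygen over 14 libraries, 2 of 8 members had a smaller change in PC3 than in HCT116 and none a larger one by edgeR, beside 1.31% and 1.01% of 15493 genes in those directions and 2.32% in either. At an unadjusted p under 0.05 the counts were 4 and 1, and DESeq2 called 3 and 1. Of the 10 known hypoxia-inducible genes, 6 also had a smaller change in PC3 and none a larger one by edgeR. Their median difference was -1.36, beside -0.21 for the members, so a smaller change in PC3 was not particular to the members. GYS1 rose less in PC3 by 0.60 on the log2 scale (difference -0.60, SE 0.14, edgeR adjusted p = 0.0424) and GBE1 by 0.58 (difference -0.58, SE 0.12, edgeR adjusted p = 0.0203). For PGM1 the difference was -0.50 (SE 0.14, edgeR adjusted p = 0.0811, but 0.0300 by DESeq2 and 0.0437 with total-count scaling) and for PPP1R3B -0.40 (SE 0.13, edgeR adjusted p = 0.127). With the replicate number as a block these reached -0.51 (adjusted p = 0.0205) and -0.41 (adjusted p = 0.0410), which made 4 members with a smaller change in PC3.

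These calls depended on single libraries. No member passed without HCT116 normoxic replicate 2 or HCT116 hypoxic replicate 2, and 4 passed without PC3 hypoxic replicate 4. With any one of PC3 normoxic replicates 2, 3 and 4, PC3 hypoxic replicates 2 and 3, HCT116 normoxic replicates 1 and 3, and HCT116 hypoxic replicates 1 and 3 left out, 1 member passed. The sign of the GYS1 and GBE1 differences was the same in all of these.

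For the phosphorylases and the other synthesis members the interaction did not pass. PYGL had a difference of -0.014 (SE 0.13, 95% interval -0.28 to 0.25, edgeR adjusted p = 1.00) and PYGB one of 0.28 (SE 0.14, 95% interval -0.017 to 0.59, edgeR adjusted p = 0.347). UGP2, which passed in PC3 alone, had a difference of 0.24 (SE 0.08, 95% interval 0.060 to 0.41, edgeR adjusted p = 0.160). GYG1, which passed in HCT116 alone, had one of 0.23 (SE 0.16, 95% interval -0.11 to 0.57, edgeR adjusted p = 0.541). DESeq2 called the UGP2 difference (0.25, adjusted p = 0.0331), so whether UGP2 differed between the lines depended on the test. No alternative called that of GYG1.

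The lines were then compared at each oxygen level. In normoxia 5 of 8 members were higher in PC3 and 2 were lower, beside 42.4% and 38.9% of 15493 genes and 81.3% in either direction. In hypoxia 4 were higher and 4 lower, beside 41.8% and 39% of genes and 80.8% in either direction. Most genes passed in these comparisons, so little can be read from the number of members that did. Both comparisons share libraries with the tests above.

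PYGB and PYGL, the tissue forms of the breakdown enzyme, differed in opposite directions. PYGB was higher in PC3 by 1.92 on the log2 scale in normoxia (SE 0.11, fold 3.79, edgeR adjusted p = 1.58e-10) and by 2.21 in hypoxia (SE 0.11, fold 4.62, edgeR adjusted p = 3.62e-11). PYGL was lower in PC3, with a difference of -1.13 in normoxia (SE 0.09, fold 0.458, edgeR adjusted p = 1.02e-08) and -1.14 in hypoxia (SE 0.09, fold 0.454, edgeR adjusted p = 8.66e-09). No library of one line overlapped with a library of the other for either gene.

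Among the synthesis members PGM1, GBE1 and UGP2 were higher in PC3 under both conditions and GYG1 was lower. In normoxia the log2 differences were 1.68 for PGM1, 1.23 for GBE1, 0.75 for UGP2 and -0.98 for GYG1. In hypoxia they were 1.18, 0.64, 0.99 and -0.76 in the same order of genes. All of these passed by edgeR, with adjusted p-values of 1.41e-05 for GYG1 in hypoxia and lower for each of the others.

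The sign of the GYS1 difference turned between the conditions. It was higher in PC3 in normoxia (log2 difference 0.33, SE 0.10, edgeR adjusted p = 0.00750) and lower in PC3 in hypoxia (-0.27, SE 0.10, edgeR adjusted p = 0.0254). The second value missed the threshold without PC3 hypoxic replicate 1 (adjusted p = 0.0720), without PC3 hypoxic replicate 3 (adjusted p = 0.05904), in a fit of the hypoxic libraries alone (adjusted p = 0.0547) and without both PC3 replicate 1 libraries (adjusted p = 0.0501). PPP1R3B did not differ detectably in normoxia (0.040, 95% interval -0.16 to 0.23, edgeR adjusted p = 0.698) and was lower in PC3 in hypoxia (-0.36, SE 0.09, edgeR adjusted p = 0.00172).

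To set the members beside each other, levels were divided by the length of the union of exons of each gene (CPM per kb). The order depends on this choice of length. GYS1 has 4241 bases by the union and 3569 in its longest transcript, and PYGL has 4546 and 2799. The longest transcript would thus place PYGL higher against GYS1, and the order was not recomputed with it. In normoxic PC3 cells the order per kb was PYGB at 96.7 ± 6.13 (SD, n = 4), PGM1 at 42.3 ± 1.94, GBE1 at 22.1 ± 0.480, PYGL at 22.04 ± 1.88, GYS1 at 20.2 ± 1.37, UGP2 at 16.0 ± 0.220, GYG1 at 4.68 ± 0.0689 and PPP1R3B at 1.80 ± 0.1003. PYGL overlapped with GBE1 and with GYS1 there, while GBE1 was above GYS1 in every library. In normoxic HCT116 cells the order per kb was PYGL at 48.1 ± 2.29 (SD, n = 3), PYGB at 25.5 ± 1.33, GYS1 at 16.0 ± 1.47, PGM1 at 13.2 ± 0.558, UGP2 at 9.47 ± 0.553, GBE1 at 9.43 ± 0.257, GYG1 at 9.25 ± 0.637 and PPP1R3B at 1.75 ± 0.185. UGP2, GBE1 and GYG1 were within their spread there. A phosphorylase led in each line, the brain form in PC3 and the liver form in HCT116.

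After hypoxia PYGB still led in PC3 at 128 ± 19.0 CPM per kb, followed by PGM1 at 68.2 ± 10.1 and GBE1 at 42.4 ± 4.36. By the union of exons, GYS1 at 27.7 ± 4.06 and PYGL at 27.4 ± 2.61 were next, ahead of UGP2 at 19.4 ± 0.266. With these lengths GYS1 and PYGL did not differ beyond their spread. In hypoxic HCT116 cells PYGL led at 60.3 ± 4.51, with GYS1 at 33.3 ± 0.398, PGM1 at 30.1 ± 2.95, PYGB at 27.6 ± 1.52 and GBE1 at 27.1 ± 3.01 after it, UGP2 at 9.75 ± 0.461 and GYG1 at 6.64 ± 0.365. In HCT116, then, GYS1, PGM1 and GBE1 had moved up to or past PYGB.

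Ratios within each library describe the balance of the arms without the scaling between libraries. PYGL made up 18.5% ± 0.714 (SD, n = 4) of PYGB and PYGL together in normoxic and 17.8% ± 1.54 in hypoxic PC3 cells, per kb. In HCT116 it made up 65.4% ± 0.745 (SD, n = 3) and 68.5% ± 2.36. With the longest transcript of each gene in place of the union of exons, these shares were 25.5% and 24.5% in PC3 and 73.9% and 76.6% in HCT116, so the form that led was the same. The muscle form was close to absent, with 0.0350, 0.0183, 0.0761 and 0.0585 of PYGM per 100 of PYGB and PYGL in normoxic PC3, hypoxic PC3, normoxic HCT116 and hypoxic HCT116 cells.

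GYS1 per 100 of PYGB and PYGL set the synthase against the phosphorylases. It was 17.0 ± 1.16 in normoxic and 17.8 ± 0.688 in hypoxic PC3 libraries, with overlapping ranges of 16.1 to 18.6 and 17.1 to 18.8. In HCT116 it was 21.8 ± 1.99 in normoxia (19.8 to 23.8) and 37.9 ± 1.85 in hypoxia (35.8 to 39.1). The synthase thus stood higher against the phosphorylases in hypoxic HCT116 cells than in any other group. Within the PC3 pairs of the same number the ratio was higher in hypoxia in all 4, from 16.2 to 17.1, 18.6 to 18.8, 17.2 to 17.8 and 16.1 to 17.7.

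Within the synthesis arm GBE1 per 100 of GYS1 was 109.6 ± 7.04 in normoxic and 154 ± 7.48 in hypoxic PC3 cells, and 59.2 ± 6.46 and 81.5 ± 9.54 in HCT116. GYG1 per 100 of GYS1 went the other way, from 23.2 ± 1.33 to 14.2 ± 1.24 in PC3 and from 58.1 ± 8.08 to 19.96 ± 1.19 in HCT116. Primer transcripts were therefore fewer per synthase transcript in every hypoxic library than in any normoxic library of the same line. These ratios were not tested. Their level depends on the choice of length. GBE1 has 4651 bases by the union and 2941 in its longest transcript, beside 4241 and 3569 for GYS1. The longest transcript would thus place GBE1 higher against GYS1 in every group, and these ratios were not recomputed with it. Lengths are the same for each library, so the direction of the change with hypoxia does not depend on them.

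**Figure D3:**
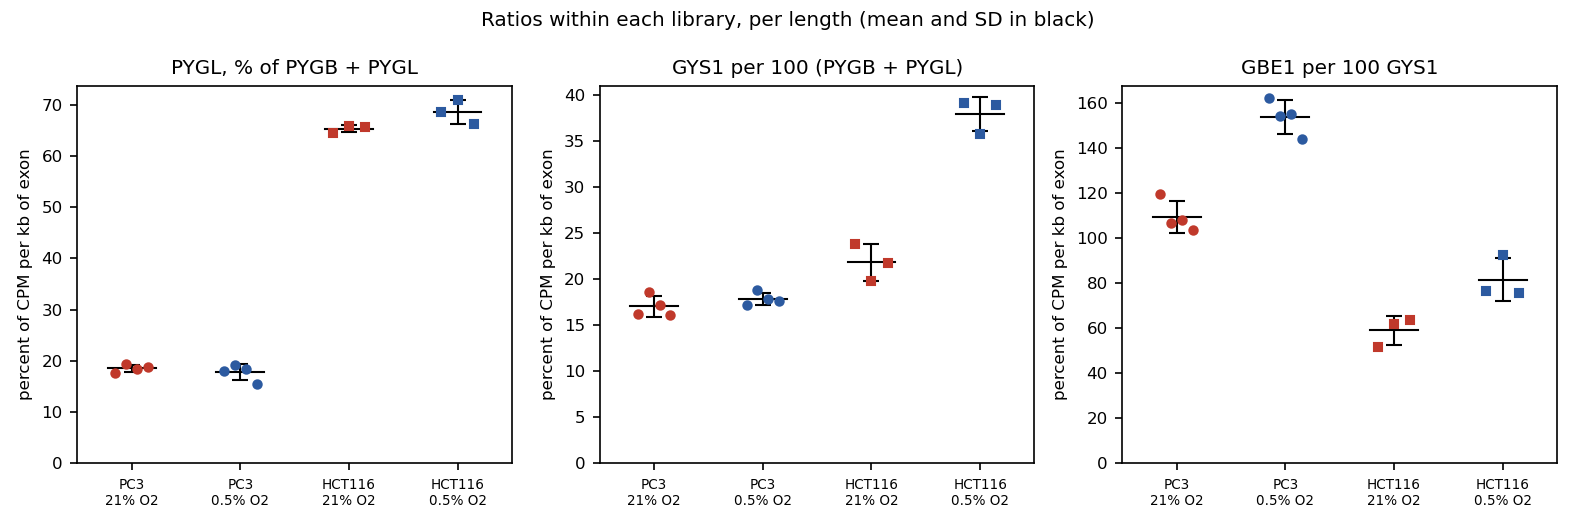
Ratios of CPM per kb of exon within each library, with the mean and SD of each group in black: PYGL as a percent of PYGB and PYGL, GYS1 per 100 of PYGB and PYGL, and GBE1 per 100 of GYS1. PYGL takes 15.6% to 19.3% in PC3 and 64.5% to 70.9% in HCT116, and GYS1 stands apart at 35.8 to 39.1 in hypoxic HCT116 libraries.

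The genes around the members were taken from lists of the same pathway. Of 14 other enzymes of glycogen and its sugar nucleotides, 1 rose and 1 fell of 11 tested in PC3, and 2 rose and 1 fell of 10 tested in HCT116, beside the 11.3% and 25.9% of all genes that passed in these lines. With the replicate block 4 rose in PC3, among them PGM2L1 and PGM5, forms of phosphoglucomutase or relatives of it. GALT, which joins galactose to the UDP-sugar pool, fell in both lines, by 0.59 (SE 0.14, edgeR adjusted p = 0.0262) in PC3 and by 0.34 (edgeR adjusted p = 0.0201) in HCT116 on the log2 scale. UGDH, which draws UDP-glucose off to glucuronate, rose in PC3 by 0.34 (SE 0.08, edgeR adjusted p = 0.0294; adjusted p = 0.0678 with total-count scaling), and its change was larger in PC3 than in HCT116 by 0.51 (SE 0.11, edgeR adjusted p = 0.0244). GAA, the lysosomal glucosidase, rose in HCT116 by 0.32 (edgeR adjusted p = 0.00675), as did the glucose-6-phosphatase G6PC3 by 0.29 (edgeR adjusted p = 0.0120), a call lost with total-count scaling.

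The tissue-specific forms were low. GYS2, the liver synthase, had 0 counts in all 8 PC3 libraries, whereas HCT116 had 19, 9 and 45 counts in normoxia and 10, 8 and 9 in hypoxia. PPP1R3A, the muscle targeting subunit, had 0 counts in all 14 libraries. G6PC, the glucose-6-phosphatase of liver, and GYG2, the liver glycogenin, had 0 counts in every HCT116 library and at most 3 and 5 counts in PC3. PYGM had 5 to 57 counts in a library. None of these except PYGM is above the floor in both lines.

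Of 8 phosphorylase kinase subunits, which with calmodulin switch the phosphorylase on, none passed in PC3 by edgeR, with 2 higher and 2 lower at an unadjusted p under 0.05 and 2 higher by DESeq2. In HCT116 1 rose, CALM3 by 0.27 (edgeR adjusted p = 0.00940), which was lost with total-count scaling. Of all genes tested, 11.3% passed in PC3 and 25.9% in HCT116. With the replicate block, which fits the pairing of the PC3 libraries, 2 rose in PC3, CALM3 among them, and 2 fell (PHKA2 and PHKG2). PHKA2 and PHKG2 also fell with total-count scaling in PC3 (adjusted p = 0.0333 and 0.0346) and in HCT116 (adjusted p = 0.0357 and 0.0134), and in neither line by the test with TMM scaling.

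Of 8 other subunits of protein phosphatase 1, 1 rose and 1 fell of 7 tested in PC3, and 3 rose of 7 in HCT116. Of all genes tested, 6.03% rose and 5.29% fell in PC3, and 14.6% rose in HCT116. With the replicate block PPP1R3F and PPP1CB passed as well in PC3, which made 3 that rose. PPP1R3G, a targeting subunit, rose most. Its level was 1.28, 0.973, 1.21 and 1.09 CPM in normoxic and 3.41, 3.45, 2.65 and 4.02 CPM in hypoxic PC3 libraries. In HCT116 it had 21, 3 and 8 counts in normoxia and 103, 89 and 99 counts in hypoxia, so the normoxic level there lay at or close to the floor. PPP1R3G had a log2 fold change of 1.57 (SE 0.17, edgeR adjusted p = 0.000832) in PC3 and 3.25 (SE 0.44, edgeR adjusted p = 0.000469) in HCT116, with a difference of -1.66 (SE 0.46, edgeR adjusted p = 0.0740).

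The other phosphatase subunits moved less. PPP1R3D, a further targeting subunit, fell by 0.41 (SE 0.06, edgeR adjusted p = 0.00463) in PC3. In HCT116 PPP1R3E rose by 0.46 (edgeR adjusted p = 0.0339), a call lost with total-count scaling, and the catalytic subunit PPP1CB rose by 0.37 (edgeR adjusted p = 0.00570). PPP1R3B and PPP1R3G were the targeting subunits that rose in both lines.

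Of 12 genes of glycogen quality control and signalling, 2 rose and none fell of 11 tested in PC3, and 3 rose and 4 fell of 10 tested in HCT116. Of all genes tested, 6.03% rose and 5.29% fell in PC3, and 14.6% rose and 11.3% fell in HCT116. By edgeR at an unadjusted p under 0.05, 2 were lower in PC3, and DESeq2 called 1 lower. With the replicate block 4 rose and 2 fell in PC3. NHLRC1, the ubiquitin ligase malin, was lower in PC3 by DESeq2 and with the block. It was also lower there with upper-quartile scaling (adjusted p = 0.0469) and with total-count scaling (adjusted p = 0.0314), the last of which called 4 genes lower. NHLRC1 had 0 counts in every normoxic HCT116 library and at most 2 in a hypoxic one, and was not tested in that line. STBD1, a starch-binding protein that anchors glycogen to membranes, had 35.3, 26.3, 26.4 and 24.7 CPM in normoxic and 51.4, 40.7, 38.7 and 41.0 CPM in hypoxic PC3 libraries. In HCT116 it had 13.9, 15.3 and 13.2 CPM in normoxia and 22.9, 28.9 and 25.4 CPM in hypoxia. It rose in both lines without overlap, by 0.61 (SE 0.14, edgeR adjusted p = 0.0228) in PC3 and 0.88 (SE 0.09, edgeR adjusted p = 6.69e-05) in HCT116. EPM2A, the glycogen phosphatase laforin, rose in HCT116 by 0.47 (edgeR adjusted p = 0.0136), and GSK3B, a kinase that inactivates the synthase, rose in PC3 by 0.25 (edgeR adjusted p = 0.0434), a call lost with upper-quartile and with total-count scaling.

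**Figure D4:**
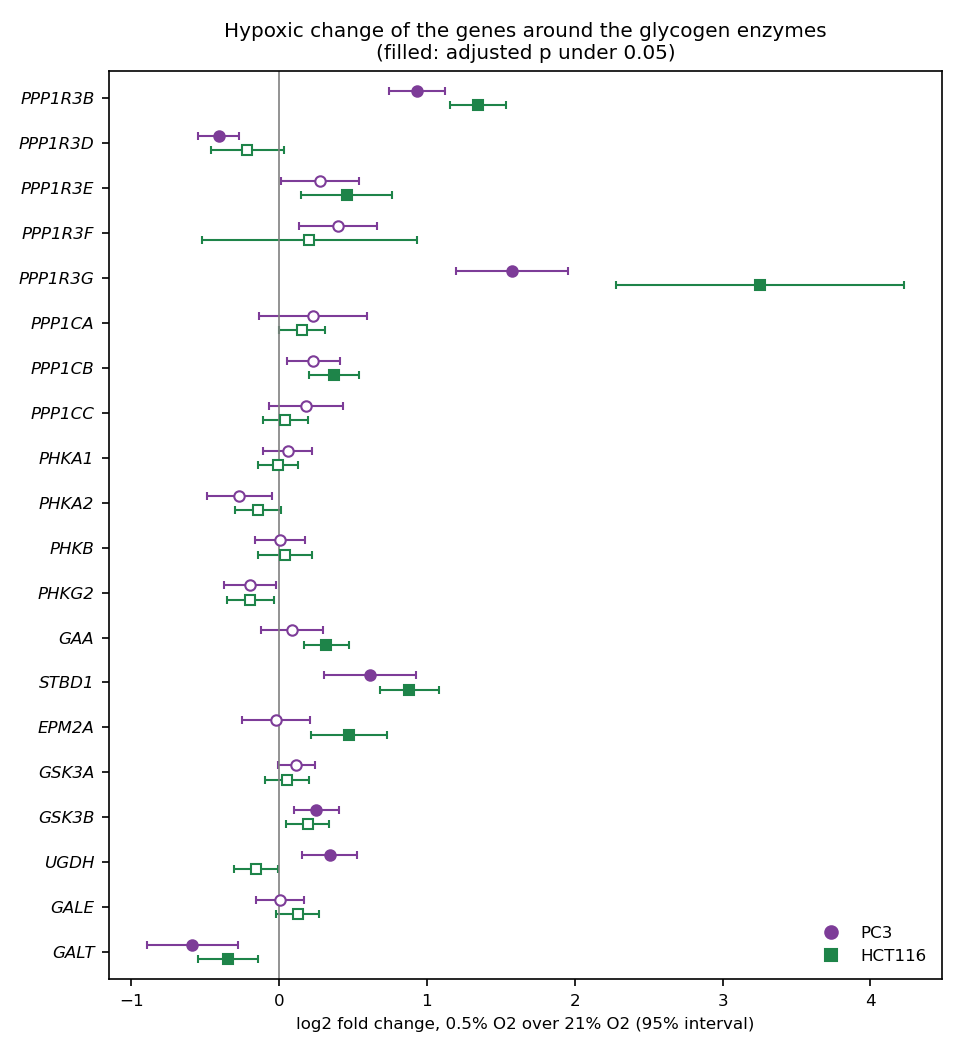
Log2 fold change, 0.5% O2 over 21% O2, of PPP1R3B and of tested genes around the members in PC3 (circles) and HCT116 (squares), with 95% intervals and filled symbols for an adjusted p under 0.05. PPP1R3G lies furthest right at 1.57 and 3.25, PPP1R3B and STBD1 lie right of 0 in both lines, and GALT lies left of 0 in both.

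The genes whose pattern was most like that of the members that rose in both lines were sought by Pearson correlation over the 14 libraries, after the mean of each line was taken off, among 11198 genes. For GBE1 these were PFKFB4, PGK1 and BNIP3, each with r = 0.993. For PGM1 they were BHLHE40 (r = 0.991), PKM (0.990) and PFKFB4 (0.990), for GYS1 GPI (0.992), PLOD1 (0.987) and EFHD2 (0.986), and for PPP1R3B RIMKLA (0.993), PFKFB4 (0.992) and EGLN1 (0.989). PYGL stood lower, with FAM117B (0.951), SEMA4B (0.947) and SNAPC3 (0.946). PFKFB4, PGK1, PKM and GPI encode enzymes of glycolysis or its regulation, and BNIP3, EGLN1 and BHLHE40 are known hypoxia-inducible genes. All points share the same 2 oxygen levels, so any gene with a steady hypoxic change scores high, and the values are given as a description.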

How the data were processed

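The authors aligned polyadenylated RNA-seq reads (NEB Ultra II library kit) with HISAT2, first to ERCC spike-ins and next to GRCh37, and counted them per RefSeq gene by HTSeq (intersection-strict); the submitters' processing notes give HISAT2 2.05 and HTSeq 0.5.4p3. The deposited values are whole-number counts per gene, not normalized. The RefSeq release and strand setting are not given in the sources used here, so genes that overlap on opposite strands are uncertain. ERCC counts and the study's other assays were not analysed here.

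In each line, edgeR 4.0.16 (R 4.3.3) was applied to the counts of all genes: filterByExpr by condition, TMM scaling, and the two-sided quasi-likelihood test with Benjamini-Hochberg adjustment over all genes tested and a threshold of 0.05. The interaction and the contrasts between lines came from 1 fit over 14 libraries. The study normalised its samples to the ERCC spike-ins and used DESeq2. DESeq2 is an alternative here (version 1.42.0), with its default scaling on the gene counts and without the spike-ins. Standard errors were derived from the test's F and the unshrunk fold change, and intervals are at 95%. CPM were scaled by TMM over 14 libraries. Exon lengths and positions came from GENCODE v44 lifted to GRCh37. The p-values measure the spread between these libraries. Scripts were tested on simulated data.

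All 9 members are named, and genes of 4 surrounding pathway lists where they passed in either line or had a group at 0 counts. The 3 genes most like each member that rose in both lines are named too. ITGB3BP, HLTF, PYGM, NHLRC1, PGM2L1, PGM5, PPP1R3F, PRKAG1 and the kinase subunits that did not pass were added after their values were seen. NHLRC1 also met the rule on 0 counts. Some genes of these lists are counted but not reported here. The members and lists were chosen with earlier results of these data known. Replicate numbers pair the PC3 libraries by the data, though weakly for replicate 3. Deviations of same-numbered libraries from the condition means correlated at 0.675, 0.267, 0.140 and 0.282 over the genes tested. Different-numbered ones reached 0.198 (normoxic 4 with hypoxic 2) and 0.136 (normoxic 2 with hypoxic 3). The main tests and the fits with a library left out did not use this pairing. Alternatives were other scalings, DESeq2, filters, a replicate block, fits over other libraries, the longest transcript and each library left out in turn; leaving out both PC3 replicate 1 libraries was added after the values had been seen.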

Additional observations from a re-analysis of the deposited data

Results flagged for a closer look

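GYS1 and GBE1 drew attention because their hypoxic change differed between PC3 and HCT116 by the interaction test. The PC3 change minus the HCT116 change was -0.60 on the log2 scale for GYS1 and -0.58 for GBE1. A smaller change in PC3 was also called for 6 of the 10 known hypoxia-inducible genes. A rule on the gap to the next value over the range marked no value in 26 sets of 4 PC3 values. Chance alone gives about 1.3. With 4 values the rule marks only an extreme gap, so it cannot show that no library differed. HCT116 libraries were not examined in this way. Among the PC3 hypoxic libraries, replicate 4 was highest for GYG1, GYS1, GBE1, PGM1, PYGB and PPP1R3B. It was not the highest for UGP2 or PYGL.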

How the results depend on the processing

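Over 1034 combinations of a result and an alternative setting, 953 were unchanged. This means the same direction and side of the threshold and, for counts, a value within 1.5 times. A ratio counted as unchanged while its group mean moved by less than the SD of the group. Total-count scaling and leaving out 1 library could not move a ratio that far, so the ratio outcomes there were fixed in advance. Total-count scaling, which moved the median of all genes by -0.10 in PC3 and -0.09 in HCT116, gave 4 members higher and 1 lower (GYG1) in PC3, and a UGP2 value of -0.032 in HCT116. DESeq2 gave 1 member (UGP2) with a larger change in PC3 than in HCT116. With the replicate block 4 members had a smaller change in PC3; the block changed no call of a member within either line, and HCT116 libraries share only a number (same-numbered correlations of 0.0908, 0.138 and 0.0429). With the longest transcript the PYGL share was 25.5% and 24.5% in PC3 and 73.9% and 76.6% in HCT116 (normoxia, then hypoxia), and GYS1 per 100 of PYGB and PYGL in HCT116 was 18.0 and 31.0. Upper-quartile scaling gave a PPP1R3B difference between lines of -0.023 in normoxia. When libraries were left out singly, the members higher in PC3 ranged from 3 to 7 and those lower from 0 to 1, and the members with a smaller change in PC3 from 0 to 4. The PYGL interaction then ranged from -0.063 to 0.053 and the normoxic PPP1R3B difference from -0.015 to 0.13. Leaving out both PC3 replicate 1 libraries kept 7 members higher in PC3. Genes outside the members were not refitted with libraries left out. The causes were not tested. Depth limits PPP1R3C, GYS2, PYGM and normoxic PPP1R3G in HCT116.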

Other observations

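The subunits of the AMP-activated protein kinase, which senses cellular energy and whose beta subunits bind glycogen, are described as a group. PRKAG3 had 0 counts in every library and was not tested. In HCT116 1 of 6 tested rose and 4 fell by edgeR, beside 25.9% of all genes that passed there and 11.3% in PC3. PRKAA2, a catalytic subunit, rose by 0.58 on the log2 scale (edgeR adjusted p = 0.00984). The other catalytic subunit PRKAA1 fell by 0.37 (edgeR adjusted p = 0.00218), the beta subunits PRKAB1 and PRKAB2 fell by 0.33 (edgeR adjusted p = 0.0159) and 0.57 (edgeR adjusted p = 0.000289), and the gamma subunit PRKAG2 fell by 0.33 (edgeR adjusted p = 0.00935). In PC3 none of 6 passed by edgeR, with 2 higher and 1 lower at an unadjusted p under 0.05 and 2 higher by DESeq2. With the replicate block 2 rose (PRKAA2 and PRKAG2) and 1 fell (PRKAB1) in PC3, and with total-count scaling 3 fell, PRKAB1 (adjusted p = 0.0224), PRKAB2 (adjusted p = 0.0483) and PRKAG1 (adjusted p = 0.0424). The change differed between the lines for PRKAG2, by 0.64 (SE 0.12, edgeR adjusted p = 0.0105), and for PRKAB2, by 0.44 (edgeR adjusted p = 0.0453).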
